A study of Rattus norvegicus with 72 samples.

Results

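The livers described here came from 3 rats, numbered 3006, 3007 and 3008, that had received 1500 mg/kg acetaminophen in methyl cellulose by oral gavage and were sampled at 48 h. They are the samples whose titles name that dose and time, 3 of the 36 rats and 6 of the 72 arrays in the series. RNA of the left liver lobe of each rat was hybridised on 2 arrays, with the dyes exchanged, both 2-colour Agilent rat oligonucleotide arrays, against a pool of RNA from rats gavaged with vehicle alone in the same dose and time series. Every other group also held 3 rats set against a pool of its own dose and time. Those used for comparison had received 2000 mg/kg at 48 h, 1500 mg/kg at 6 h and 24 h, and 50 or 150 mg/kg at 48 h. All rats ate the NIH-07 diet and were housed 3 to a cage, and the labels used here give neither cage mates nor strain, sex or age. The titles of the 1500 mg/kg groups give the dose in mg, and the unit mg/kg is written out only for 150 mg/kg groups.

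Acetaminophen is cleared mostly by sulfation and glucuronidation. The part that cytochrome P450 enzymes, Cyp2e1 among them, oxidise becomes a reactive quinone imine that glutathione captures until it runs out, after which the imine binds protein and hepatocytes around the central vein die. In rodents the dead cells are then cleared by macrophages, and surviving hepatocytes enter the cell cycle to refill the lobule.

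A value is a log2 ratio of 1 rat over its control pool, the mean of its 2 arrays, so values above 0 stand for more RNA in treated liver. The labels do not say which dye is the numerator. Red over green was taken, the usual output of this scanner software, and every sign below would turn if it were green over red. A pool is 1 control sample, so the p-values leave out the spread among vehicle rats. Of 17299 features tested with limma, 3240 (18.7%) were called, meaning a Benjamini-Hochberg adjusted p below 0.05 and a mean change of at least 1.5-fold. Of these, 2302 (13.3%) were higher and 938 (5.42%) lower, and later counts are to be read against these shares unless another setting is named. With arrays scaled to equal spread, 1281 of the 17299 features were higher and 380 lower. Without rat 3006, 2379 of 17266 features were higher and 974 lower. Without rat 3007, 2053 of 17252 were higher and 919 lower. With the 3 rats alone fitted, 2176 of 17299 were higher and 915 lower. List counts in these settings are to be read against those numbers. The median feature stood at -0.04. All 3 rats were on 1 side of 0 for 3197 of the 3226 called features measured in all of them. The calls were made from the same 3 values against 1 pool, so that count is largely set by the choice.

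As deposited, the 2 arrays of a rat ran opposite ways, with correlations of -0.657, -0.653 and -0.643, as exchanged dyes give. The rats did not respond equally. Over 17227 features rats 3007 and 3008 correlated at 0.907, rats 3006 and 3007 at 0.857 and rats 3006 and 3008 at 0.819, as a description across features that share probes and a pool. Among 2294 features called higher and measured in all 3 rats, the lowest of the 3 values fell in rat 3006 for 1127, in rat 3008 for 995 and in rat 3007 for 172. The highest fell in rat 3007 for 1298, in rat 3006 for 521 and in rat 3008 for 475. Among 932 called lower, the lowest value fell in rats 3006, 3007 and 3008 for 372, 289 and 271. The value nearest to 0 fell in them for 259, 394 and 279. Tallies of rats within a list are to be read against these. Each rat was also left out in turn. Of 9 hepatocyte identity genes tested, Apoa1 rose, Tat and Cyp2e1 fell and 6 were not called. Among those 6, the ratio was -0.36 for Apob, -0.40 for Hnf4a and -0.11 for Gc. In whole liver, fewer cells of a type and less RNA per cell cannot be told apart, which holds for every list below.

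The genes with the highest ratios were Spp1 and A2m. Spp1, which encodes osteopontin, a secreted matrix protein of macrophages, bile duct cells and stellate cells, had values of 5.71, 6.64 and 6.64 in rats 3006, 3007 and 3008, the order kept for values in threes below. The deposited values end at 6.64, and 4 of the 6 arrays stood there, so the mean of 6.33 (n = 3), about 80.6-fold, is a lower bound. A2m, alpha-2-macroglobulin and the major acute phase protein of the rat, had 5.70, 6.64 and 6.22, with 2 arrays at the limit. Both genes were lowest in rat 3006. Neither was near this level at the lower doses, where Spp1 averaged 0.15 at 50 mg/kg and 0.18 at 150 mg/kg, and A2m 0.07 and 0.00.

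Several of the other 13 genes among the 15 that rose most are known from macrophages and other myeloid cells. Gpnmb, a lysosomal glycoprotein of phagocytes, had 2.91, 4.86 and 4.70, a mean of 4.16 (17.8-fold, adjusted p = 1.85e-11). Mmp12, macrophage elastase, had 1.75, 4.35 and 3.92. S100a9, a partner in calprotectin of neutrophils and monocytes, had 1.95, 4.20 and 3.80, and the tetraspanin Cd9 had 1.40, 4.16 and 4.13. In these 4 genes rat 3006 lay well below the other rats, which lay close together. The annexin partner S100a10 had 2.73, 4.46 and 4.04, S100a4 had 2.07, 3.65 and 3.96, and the metallothionein Mt2A had 2.34, 3.87 and 3.94, again lowest in rat 3006.

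The dividing-cell genes in the same group did not share that order. Mcm5, a subunit of the replicative helicase, had 3.58, 4.23 and 3.48. Ube2c, the ubiquitin-conjugating enzyme of the anaphase-promoting complex, had 3.54, 3.28 and 3.38, the smallest spread of the 15 (SD 0.13). Ska1, a kinetochore protein, had 3.68, 3.33 and 2.76. Rat 3006 was the highest for both Ube2c and Ska1. Chaf1b, a chromatin assembly subunit, the microtubule regulator Stmn1 and Cdkn3, a phosphatase of cyclin-dependent kinases, had means of 3.25, 3.15 and 3.14.

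**Figure D1:**
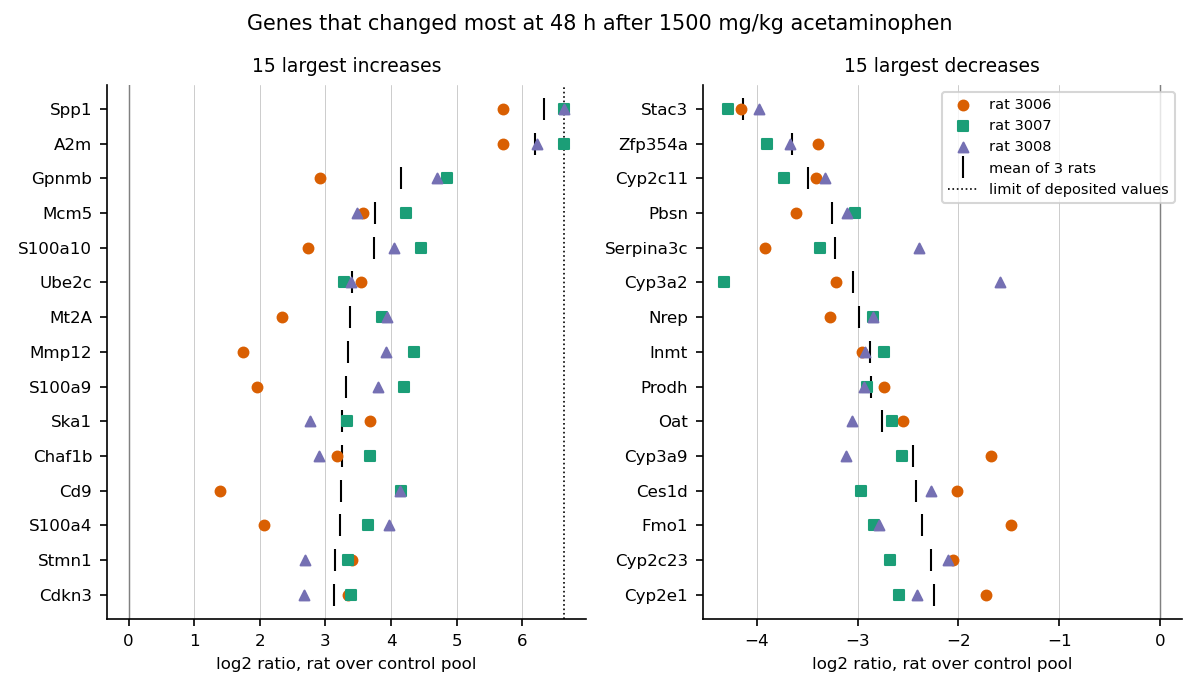
Log2 ratio over the control pool (x axis) of the 15 genes called with the highest mean (left) and the 15 with the lowest mean (right) at 1500 mg/kg and 48 h, with 1 symbol for each rat and a vertical tick at the mean of 3 rats; the dotted line marks the limit of the deposited values at 6.64. Rat 3006 lies lowest for Gpnmb, S100a10, Mmp12, S100a9 and Cd9, but not for Ube2c or Ska1. The genes were chosen with the same sign on every array, so all 3 rats lie on 1 side of 0 by that choice.

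The largest decrease was in Stac3, known as an adaptor of calcium release in muscle, with -4.15, -4.28 and -3.98 (17.6-fold lower, adjusted p = 1.43e-16). The KRAB zinc finger gene Zfp354a had -3.40, -3.90 and -3.67. Nrep, first named for neuronal regeneration, had -3.27, -2.85 and -2.84. For these 3 genes the rats lay within a narrow band far from 0. Among enzymes, Prodh, which starts proline breakdown, averaged -2.86, Oat, ornithine aminotransferase, -2.76 and the N-methyltransferase Inmt -2.88, although the 3 probes of Inmt ranged from -4.98 to -1.45. The carboxylesterase Ces1d had -2.02, -2.96 and -2.27, and the flavin monooxygenase Fmo1 had -1.48, -2.83 and -2.79.

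DNA replication genes rose as a group. Of 35 tested members 25 rose and 0 fell, against 13.3% higher and 5.42% lower over all features, and the median was 1.29. The 4 with the highest means were Mcm5, Mcm4 (2.58), Rfc4 (2.45), which loads the sliding clamp, and Orc6 (2.42), of the origin recognition complex. Pcna, the clamp itself, had 1.56, 1.80 and 1.12, and Ccne1, the cyclin of S phase entry, had 2.79, 2.42 and 1.21. Rat 3008 was the lowest for 23 of the 25, and rat 3007 the highest for 19. The 10 other members were not called, among them Mcm3 at -0.23, Rrm1 at 0.22 and Cdc6 at -0.57.

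Mcm5 and Ska1 were the called replication and mitosis genes of highest mean for which the promoter was at hand, and their 5′ flanks are printed to set the motifs of cell cycle genes beside these ratios. The sequences are the bases before the annotated gene start in RefSeq (GRCr8). Mcm5 is chr19:13488563-13488812 on the plus strand and Ska1, trimmed to the 216 bases outside the gene, is chr18:70080304-70080519 on the minus strand. Capitals mark matches, on either strand, to the E2F-type octamers TTTCCCGC, TTTGGCGC, TTTCGCGC and TTTGCCGC, to the CHR element TTTGAA and to CCAAT.

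Mcm5: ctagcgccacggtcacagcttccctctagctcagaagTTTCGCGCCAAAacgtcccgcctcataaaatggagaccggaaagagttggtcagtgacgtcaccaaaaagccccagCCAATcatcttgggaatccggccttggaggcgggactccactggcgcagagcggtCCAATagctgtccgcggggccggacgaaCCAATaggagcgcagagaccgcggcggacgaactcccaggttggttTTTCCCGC

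Ska1: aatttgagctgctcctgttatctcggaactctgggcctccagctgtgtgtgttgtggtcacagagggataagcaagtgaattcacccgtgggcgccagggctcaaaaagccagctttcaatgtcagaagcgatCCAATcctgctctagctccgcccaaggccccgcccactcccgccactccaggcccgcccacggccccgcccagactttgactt

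The Mcm5 window held 3 E2F-type matches, 2 of which overlap (TTTCGCGC and, read from the other strand, GCGCCAAA), and 3 CCAAT boxes. The Ska1 window held 1 CCAAT box and neither of the other motifs. Over 33469 rat promoters of 250 bases, 1.73% held an E2F-type octamer, 34.0% CCAAT and 16.2% TTTGAA. These are matches of letters, not measured sites. Promoters of Mcm4 and Ube2c were not used here.

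Mitosis genes rose too, with 18 of 33 tested members higher, 0 lower and a median of 0.68. Those with the highest means were Ube2c, Ska1, Stmn1 and Mki67, the Ki-67 antigen, with 3.24, 3.58 and 2.45. Cdk1, the kinase that starts mitosis, had 2.74, 3.03 and 2.83, and its partner Ccnb2 had 3.62, 3.07 and 2.15. Rat 3006 was the highest for 11 of the 18 and rat 3008 the lowest for 14. Several members of the same machinery were not called, with Top2a at -0.06, Aurkb at -0.20, Bub1 at -0.11 and Cdc20 at 0.42. Among 19 cell cycle regulators 5 rose and 1 fell, and besides Cdkn3 these were Ccng1 (1.35), Cdkn2c (1.09), Foxm1 (0.80), Ccnd3 (0.64) and the inhibitor Cdkn2a (-0.61). With arrays scaled to equal spread the regulator count was 3 higher and 0 lower, and the call of Foxm1 was lost. The inhibitor Cdkn1a was at -0.41 and not called.

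Growth signals around those cells were mixed. Of 40 regeneration ligands and receptors 6 rose and 5 fell, with a median of -0.14. The matrix-associated factor Ccn2 had 0.38, 2.98 and 1.78, Tgfb1, a brake on hepatocyte division, 1.27, 1.43 and 1.58, and the platelet-derived growth factor chain Pdgfa 0.39, 1.62 and 1.78. Egf had -1.19, -1.04 and -1.04. The mitogen Hgf was at 0.33, Tgfa at 0.13 and Il6 at 0.05, none of them called. The count was 3 higher and 4 lower with arrays scaled, and 3 higher and 5 lower when the 3 rats alone were fitted, where Ccn2 lost its call. Of 18 targets of p53 6 rose and 1 fell, led by the death receptor Fas (1.64), Ccng1, Gadd45a (1.34) and Bax (1.24), and Mdm2 at -0.57 and Gdf15 at -0.17 were not called.

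Ribosomal protein genes rose almost without exception. Of 47 cytosolic ribosomal proteins 43 rose and 0 fell, with a median of 1.22. Rps19 had 1.53, 1.93 and 1.71, Rps24 1.42, 1.86 and 1.63, and Rplp0 and Rpl9 both averaged 1.62. The change was only about 3.30-fold for Rps19, the largest of them, and of the 43 rat 3007 was the highest for 42 and rat 3006 the lowest for 36. Of 24 ribosome biogenesis genes 11 rose and 0 fell, with Nop58 at 1.44, Ebna1bp2 at 1.41, Nip7 at 1.31 and Npm1 at 1.30. Of 36 proteasome subunits 20 rose and 0 fell, led by Psmb7 (1.30) and by Psmb9 (1.21), Psma2 (0.99) and Psma1 (0.98). With arrays scaled 8 rose, a setting in which fewer features were called among all of them too. Oxidative phosphorylation had 1 call among 40, Cycs (0.87), and a median of 0.19.

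Macrophage and monocyte genes rose in 19 of 31 tested members, with 0 lower and a median of 1.15. Besides Gpnmb and Mmp12 the highest were Lgals3, galectin-3, with 1.72, 3.88 and 3.45, and the lipase Lpl with 1.28, 4.12 and 3.34. Lyz2, lysozyme, had 1.46, 3.48 and 3.25, and Trem2, a lipid receptor of tissue macrophages, 0.68, 1.60 and 1.37. The list median was 0.43 in rat 3006, 1.23 in rat 3007 and 1.30 in rat 3008, and rat 3006 was the lowest for 18 of the 19. Without rat 3006, 20 of 31 members were called. General markers did not follow, with Cd68 at -0.15, Adgre1 at -0.17, Csf1r at -0.09 and Cd163 at 0.05, and the Kupffer cell lectin Clec4f at -0.35, none called. Because the values are ratios, the summed level of the list could not be given.

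Markers of other blood cells differed by type. Of 11 neutrophil genes 5 rose and 0 fell, namely S100a9, Lcn2 (1.81), Ncf4 (1.58), S100a8 (1.29) and Il1r2 (1.02), while the receptor Cxcr2 was at -0.21 and Mmp9 at 0.09. On the arrays with the treated rat in Cy3, S100a8 stood at 0.27 and was not called. Of 24 T, NK and B cell genes 0 rose and 2 fell, Cd79b at -0.62 and Jchain at -0.59, and both calls were lost with arrays scaled. Of 6 erythroid genes Alas2 (-0.62) fell, a call lost with arrays scaled, with the treated rat in Cy5 only and without rat 3007. Of 26 chemokine and adhesion genes 9 rose and 0 fell. The monocyte attractant Ccl2 had 0.01, 3.68 and 3.70, Tlr2, a pattern recognition receptor, 0.94, 2.44 and 3.44, and Il1b 0.07, 1.32 and 2.32. Ccl7, a related monocyte attractant, had 0.15, 2.71 and 2.69. Rat 3006 was at or near 0 for Ccl2, Ccl7 and Il1b, and both Ccl2 and Ccl7 lost their calls when the 3 rats alone set the spread, leaving 5 of the list. Of 18 interferon-stimulated genes 10 rose and 0 fell, led by Ifit3 (2.17), Cxcl10 (1.26), Psmb9 and Rtp4 (1.11), and 5 with arrays scaled.

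Matrix and cytoskeleton genes moved with the same rats. Of 35 stellate cell and matrix genes 16 rose and 0 fell, with a median of 0.24, and 10 rose with arrays scaled. After Spp1 the highest were Des, the intermediate filament of stellate cells, with 0.89, 3.40 and 2.55, Col1a2, a chain of type I collagen, with 0.72, 2.38 and 2.22, and Ccn2. Col3a1 at -0.51, Timp3 at -0.35 and Lox at -0.41 were not called. Of 31 cytoskeleton and annexin genes 21 rose and 0 fell, with a median of 0.93, and the highest after S100a10 and S100a4 were Tuba1a (2.81) and Anxa5 (2.69). Rat 3006 was the lowest for 15 of the 16 matrix genes and for 19 of the 21 cytoskeleton genes, the rat with the lowest macrophage median. What part macrophage RNA has in these lists was not tested. Of 15 endothelial genes 3 rose, Lyve1 (0.67), Egfl7 (0.66) and Cdh5 (0.60), all lost with arrays scaled. Among 14 cholangiocyte genes Spp1 rose and the anion exchanger Slc4a2 (-0.64) fell, while Krt19, the duct keratin, was at -0.30 and Epcam at 0.20. The call of Slc4a2 was lost with arrays scaled, without rat 3006 and without rat 3008. Of 19 fetal and progenitor genes 5 rose, Spp1, Gstp1 (2.30), Aldoa (1.92), Pkm (1.23) and Hk1, and Afp was at -0.06.

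**Figure D2:**
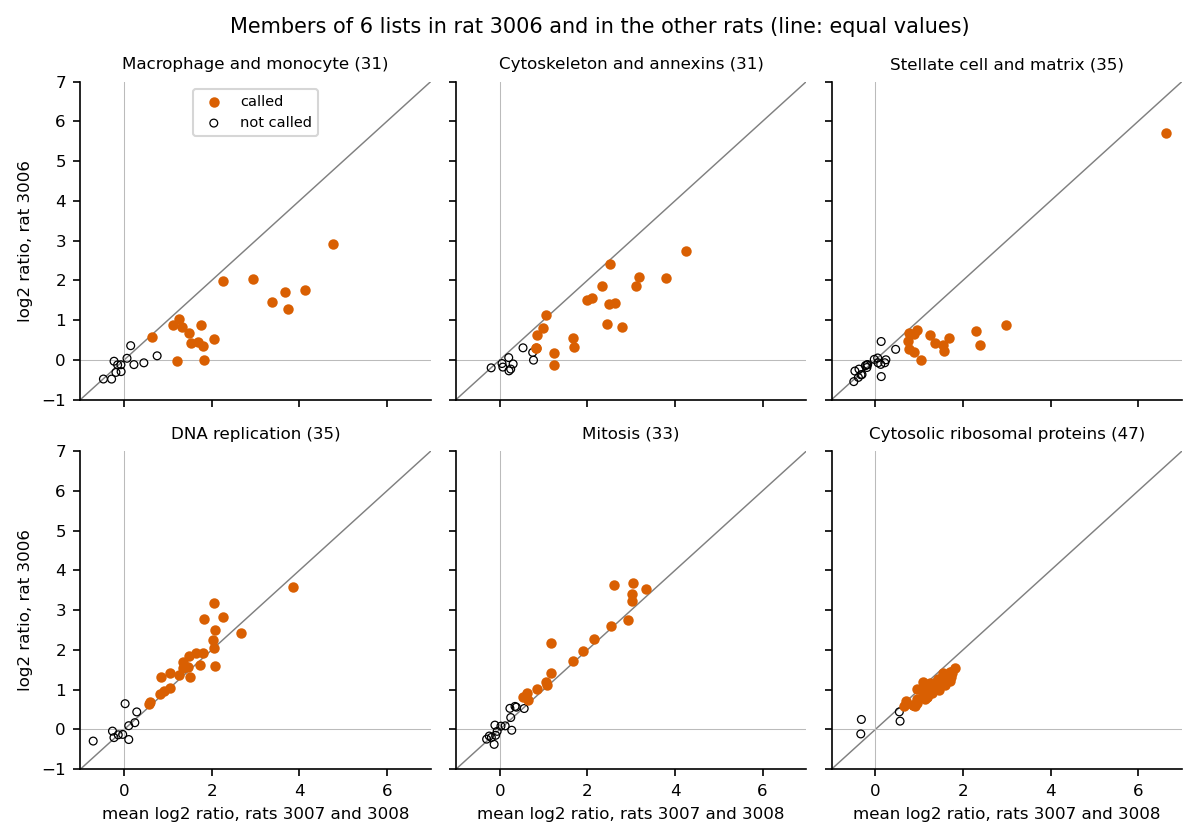
Log2 ratio over the control pool in rat 3006 (y axis) against the mean of rats 3007 and 3008 (x axis) for each tested member of 6 gene lists, with the number of members in brackets, filled points called, open points not called and the diagonal at equal values. Filled points of the macrophage, cytoskeleton, stellate and ribosomal protein lists lie mostly under the diagonal, those of ribosomal proteins by a smaller distance, and rat 3006 was the lowest for 1 called member each of DNA replication and mitosis.

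Genes of liver function fell. Of 41 P450 enzymes 19 fell and 3 rose, with a median of -0.55. Cyp2c11, a steroid hydroxylase of male rat liver, had -3.42, -3.73 and -3.32, Cyp3a2 had -3.22, -4.32 and -1.59, Cyp3a9 had -1.68, -2.56 and -3.12, and Cyp2c23, an arachidonic acid epoxygenase, -2.05, -2.68 and -2.10. The 3 rats differed most for Cyp3a2, though all lay far below 0. Cyp2e1 had -1.73, -2.58 and -2.41, a fall of 4.73-fold. Rat 3007 was the lowest for 16 of the 19. The 3 that rose were Cyp7b1 (1.66), Cyp1b1 (1.31) and Cyp4v3 (0.71). Among 15 sulfation and glucuronidation genes 7 fell and 1 rose. Sult1c3 (-1.31) and Sult1c2 (-1.16) were the lowest, Ugt2b1 had -0.66, -1.93 and -0.54 and was not called without rat 3007 (-0.60), and Papss1, which makes the sulfate donor, rose (1.02), although 1 of its probes stood at 0.13.

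Genes known to depend on sex steroids or growth hormone fell in 12 of 19 tested, with 0 higher and a median of -0.89. Pbsn, the androgen-regulated lipocalin probasin, had -3.62, -3.03 and -3.10, and Serpina3c, a protease inhibitor, -3.91, -3.37 and -2.39. Igf1 had -0.82, -0.95 and -0.86 and the growth hormone receptor Ghr -0.78, -1.03 and -1.10. The female-type Cyp2c12 was at 0.50 and not called. The labels used here do not give the sex of the rats.

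Genes of nitrogen metabolism also fell. Of 37 urea cycle and amino acid catabolic genes 20 fell and 0 rose, with a median of -0.60, and 12 fell with arrays scaled. Prodh, Oat, Gnmt (-1.93), which methylates glycine, and Kynu (-1.89), of tryptophan breakdown, were the lowest. Rat 3008 was the lowest for 15 of the 20 and rat 3006 nearest to 0 for 16. Ass1, of the urea cycle, had -0.96, -0.95 and -2.13, and Sds, serine dehydratase, 0.07, -0.04 and -2.54, so that its call rests on rat 3008 and its mean was 0.01 without that rat. Of 20 gluconeogenesis and glycogen genes 9 fell and 2 rose. Both G6pc1 (-1.97), glucose-6-phosphatase, and Pck1 (-1.85), the cytosolic carboxykinase, fell, followed by Gckr (-1.26) and Ppp1r3b (-1.21), and the mitochondrial carboxykinase Pck2 (0.80) rose.

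Zonal markers fell from both ends of the lobule. Of 17 pericentral genes 11 fell and 0 rose (median -0.94), with Oat, Cyp2e1, Cyp1a2 (-2.08) and the dicarboxylate carrier Slc13a3 the lowest. Of 14 periportal genes 9 fell and 0 rose (median -0.80), led by G6pc1, Pck1, Tat (-1.59) and Ass1. Slc13a3 had -0.67, -2.99 and -1.54 and lost its call when only the 3 rats were fitted. Glul, the marker of the innermost cells, had -1.72, -1.04 and -0.83, and for it rat 3006 was the lowest. Arg1, a periportal gene, was at 0.45 and Axin2, a pericentral Wnt target, at -0.07, neither called.

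Bile acid genes fell in 9 of 25 members and rose in 2. Slc27a5, a bile acid ligase, averaged -1.87, the nuclear receptor Nr0b2 had -0.75, -2.64 and -1.77, and Cyp7b1 and Abcg5, a sterol exporter with 2.70, 1.68 and 0.48, rose. Rat 3007 was the lowest for all 9 that fell. Nr0b2 was not called without rat 3007 (-1.26), nor Abcg5 when only the 3 rats were fitted. Of 18 solute transporters 6 fell and 2 rose, with the uptake carriers Slco1a1 (-1.52) and Slco1a4 (-1.22) below 0 and the efflux pump Abcc1 (1.32) above it. Among 38 secreted hepatocyte proteins 13 fell and 4 rose, the lowest being the lipase Lipc (-1.36) and corticosteroid-binding Serpina6 (-1.20), and the highest Apoa1 (1.32) and the complement regulator C4bpb (1.32). Counts of 7 lower with arrays scaled and 8 lower without rat 3007 were found for that list. Of 24 hepatocyte transcription factors 5 fell and 3 rose, with Zfp354a, Nr0b2, Nr1i3 (-1.54), the xenobiotic receptor CAR, and the circadian factor Dbp (1.31) farthest from 0, and with arrays scaled 3 fell and 2 rose.

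The fatty acid lists held few calls. Fatty acid oxidation had 1 higher and 2 lower calls among 31 members, Hadhb (0.92), Acadm (-0.72) and Acaa1a (-0.70). Fatty acid and triglyceride synthesis had 2 higher, Scd2 (1.33) and Elovl6 (0.91), and 1 lower, Acss2 (-0.71), among 22. Cholesterol synthesis had 3 higher and 2 lower among 21. Sqle, squalene epoxidase, had 1.36, 0.69 and 1.58, with Msmo1 at 0.82, while Tm7sf2 (-1.58) and Insig2 (-0.78) fell. The calls of Acadm, Acaa1a, Elovl6, Acss2 and Insig2 were lost with arrays scaled.

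Stress genes remained above the pool in part. Of 37 glutathione and NRF2 target genes 15 rose and 1 fell, with a median of 0.53. Gstp1, a glutathione transferase, had 2.35, 2.68 and 1.87, Gss, which completes glutathione, 1.73, 1.56 and 1.37, and Hmox1, heme oxygenase, 0.83, 2.39 and 2.06. Gstm7 (-1.76) fell. Rat 3006 differed from the others for some members. It had 2.40 for Gsta3 and 2.46 for Akr7a3, against 0.40 and 0.40 for Gsta3 and 1.20 and 0.91 for Akr7a3 in rats 3007 and 3008. Gsta2 had 0.78, -1.02 and -0.98 and was not called with all 3 rats. Without rat 3006 the mean of Gsta3 was 0.40 (adjusted p = 0.134, limma), and Gsta2 was called lower at -0.999.

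Of 11 metallothionein and metal handling genes 8 rose and 0 fell, Mt1 with 1.40, 2.50 and 2.77 and the heme scavenger Hpx with 1.31, 1.00 and 1.82 after Mt2A, and the iron store Fth1 at 1.30. Heat shock and chaperone genes rose in 12 of 23 members, among them Hsp90aa1 (1.76), Hsp90b1 (1.31), Hspd1 (1.26) and Hspa5 (1.23), and Hspa1a, the inducible Hsp70, was at 0.42 and not called. Of 23 integrated stress response genes 5 rose and 1 fell, Phgdh (1.89), Atf3 (1.62), Ddit3 (1.28), Mthfd2 (0.92), Trib3 and the lower Sesn2 (-1.05), with Atf4 itself at 0.24. Of 19 immediate early genes 11 rose and 0 fell, the highest being Egr1 with 2.80, 2.35 and 2.88, then Atf3, Klf6 (1.54) and Dusp6 (1.46).

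Acute phase genes split. Of 25 tested 9 rose and 4 fell. Lbp, the endotoxin-binding protein, had 2.43, 2.47 and 4.24, Orm1 averaged 2.01 and Fgg, a fibrinogen chain, 1.89, whereas Crp (-0.73) and Mug1 (-1.37) fell with Serpina3c and Tat. Rat 3008 was the highest for 6 of the 9 that rose.

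**Figure D3:**
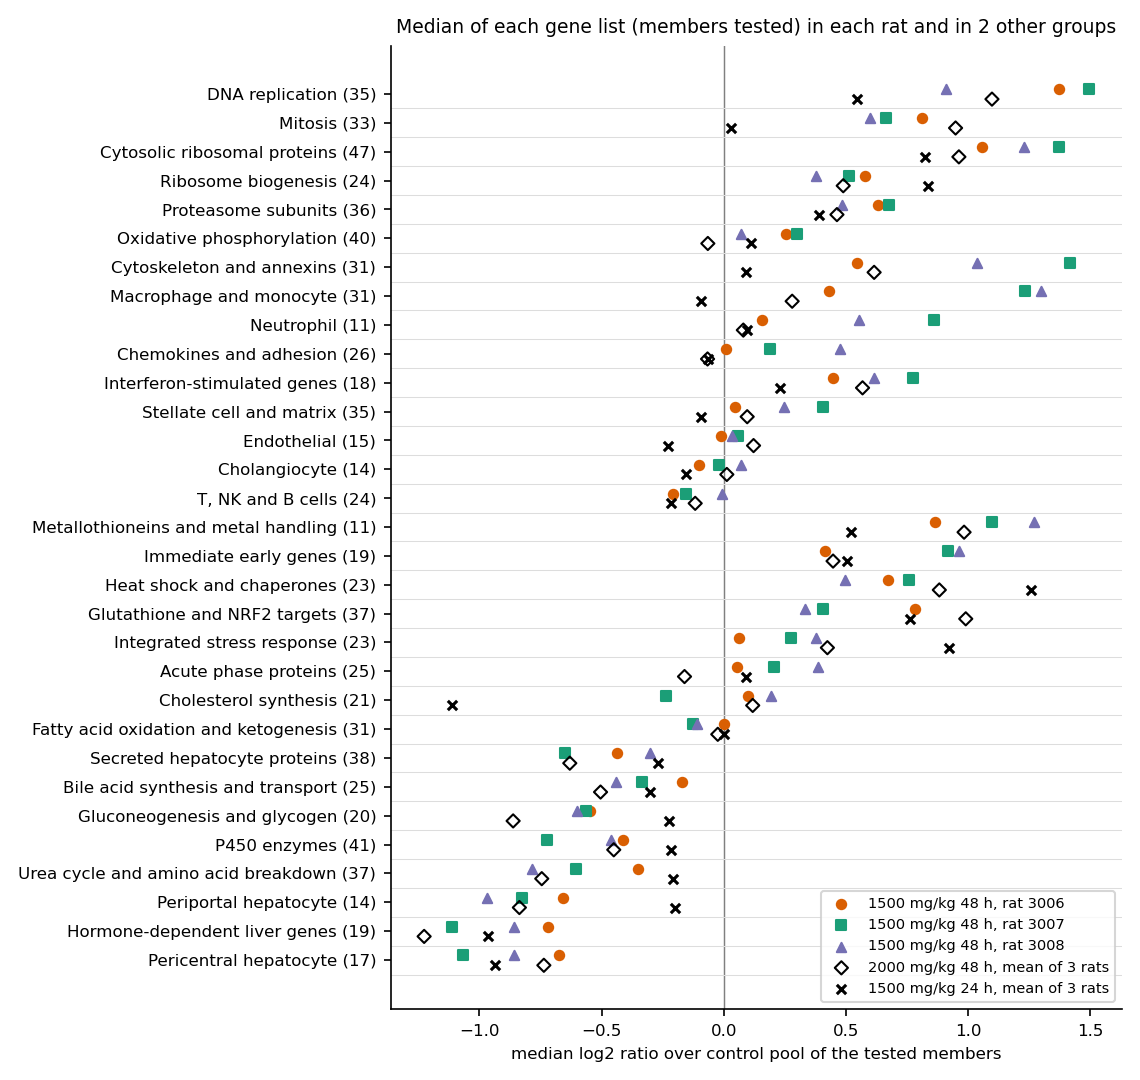
Median log2 ratio over the control pool (x axis) of the tested members of gene lists, with the number of members in brackets. Filled symbols show each of the 3 rats at 1500 mg/kg and 48 h. The mean of 3 rats is shown at 2000 mg/kg and 48 h (diamonds) and at 1500 mg/kg and 24 h (crosses). The macrophage median was 0.43 in rat 3006, 1.23 in rat 3007 and 1.30 in rat 3008, and the cholesterol synthesis median was 0.09 at 48 h against -1.11 at 24 h.

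The 8 called genes named here had the widest spread among the rats, Ccl2, Gng12, Or8c18, Cd9, Pf4, Sds, Ccl7 and Lpl. Pf4, platelet factor 4, had -0.25, 2.62 and 1.86 and was not called without rat 3007 (0.80). Gng12, a G protein subunit, had -3.16 in rat 3006 and -0.08 and -0.10 in the others, and a single array set this, with -6.11 in Cy5 and -0.21 in Cy3. The olfactory receptor gene Or8c18 had 2.90, -0.07 and 0.05, with 5.70 in Cy3 and 0.10 in Cy5 on the arrays of rat 3006. For both genes the mean without rat 3006, -0.09 for Gng12 and -0.01 for Or8c18, was near 0.

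The difference from 1500 mg/kg at 24 h compares different rats, each time set against its own pool. It was called for 1491 features (8.62%), of which 1117 (6.46%) were higher at 48 h and 374 (2.16%) lower. Without rat 3020 of the 24 h group, 935 were higher and 395 lower. That rat had 0.40 for Atf3, against 4.22 and 3.76 in rats 3018 and 3019, and -0.24 for Ccl2, against 2.98 and 2.41. For Phgdh, at 3.27, it was the highest of the 3. What part rat 3020 has in the list counts was not tested. Against the pool at 24 h, 1236 features (7.14%) had been called higher and 475 (2.75%) lower. Of the 2302 higher at 48 h, 790 had been higher at 24 h, 34.3% of the later and 63.9% of the earlier calls. Of the 938 lower at 48 h, 244 had been lower, 26.0% of the later and 51.4% of the earlier calls. The direction was opposite for 27 of the features higher at 48 h and for 9 of those lower.

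Mitosis genes were late, with 17 of 33 members higher at 48 h than at 24 h and 0 lower. The median was 0.68 at 48 h against 0.03 at 24 h. Ube2c had 3.54, 3.28 and 3.38 at 48 h, against 0.64, 0.84 and -0.63 at 24 h, a difference of 3.12 (SE 0.37, adjusted p = 1.43e-06, limma). Cdkn3, with a difference of 3.39, had -0.08, -0.07 and -0.61 at 24 h. In neither gene did a rat at 24 h reach 1 on this scale. For DNA replication, 15 of 35 members were called higher than the pool at 24 h and 15, counted separately, were higher at 48 h than at 24 h, with medians of 1.29 at 48 h and 0.55 at 24 h. Of 47 ribosomal proteins, 42 were called higher than the pool at 24 h and 9, counted separately, were higher at 48 h than at 24 h.

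Macrophage genes gained between the times in 22 of 31 members, cytoskeleton genes in 18 of 31 and stellate genes in 13 of 35, with 0 lower in each. Spp1 had 5.71, 6.64 and 6.64 at 48 h, against 2.23, 2.12 and -0.51 at 24 h, a difference of at least 5.05 since values at 48 h were at the limit. Gpnmb differed by 3.42 and had 1.53, 1.14 and -0.47 at 24 h. Here the same rat at 24 h, numbered 3020, was the lowest. A2m had 1.53, 5.37 and 0.34 at 24 h, a wide range, and differed by at least 3.77 for the same reason (not called when only these 6 rats were fitted, adjusted p = 0.101). Cd9 differed by 3.17 (not called in that fit either, adjusted p = 0.0555), Tuba1a by 3.12 and Sgk1, a glucocorticoid-induced kinase, by 3.12, with -1.99, -1.76 and -2.27 at 24 h.

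Cholesterol synthesis had been low at 24 h, with 17 of 21 members called lower and a median of -1.11, and 13 were higher at 48 h than at 24 h. Sqle had 1.36, 0.69 and 1.58 at 48 h, against -1.23, -0.97 and -2.20 at 24 h. Fdps had 0.77, 0.29 and 1.28, against -1.17, -1.42 and -1.62. In both genes every rat at 48 h was above 0 and every rat at 24 h below it. Cyp51, at -0.18 and not called at 48 h, had averaged -1.83 at 24 h.

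Stress responses were lower on the second day. NRF2 targets were lower than at 24 h in 13 of 37 members and higher in 1, heat shock genes lower in 9 of 23, the integrated stress response in 10 of 23 and ribosome biogenesis in 4 of 24, with 0 higher in these 3. Akr7a3, an aldehyde reductase, had 2.46, 1.20 and 0.91 at 48 h, against 4.58, 4.45 and 3.92 at 24 h. Hspa1a had 0.10, 0.52 and 0.66, against 4.67, 4.32 and 1.66, and was not called when only these 6 rats were fitted (adjusted p = 0.0589). The single NRF2 list member that was higher was Nfe2l2 itself, the gene of NRF2, with 1.26, 1.53 and 1.20 at 48 h, against -0.64, -0.95 and -0.81 at 24 h. Ifrd1, a transcriptional co-regulator, differed by -2.27.

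Several liver genes fell late. Zfp354a had -3.40, -3.90 and -3.67 at 48 h, against 1.67, 0.39 and 2.72 at 24 h (difference -5.24, adjusted p = 8.68e-09), and had averaged 4.62 at 6 h. It thus stood far above the pool at 6 h and far below it at 48 h. Cyp2e1 averaged -2.24 at 48 h, against 0.09 at 24 h and 0.33 at 6 h. Pck1 differed by -2.27, Cyp3a9 by -2.12 and Tat by -2.09, with means of 0.42, -0.33 and 0.50 at 24 h. Tat was not called with arrays scaled. Stac3, by contrast, had -4.35, -4.49 and -3.57 at 24 h and -1.30 on average at 6 h.

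**Figure D4:**
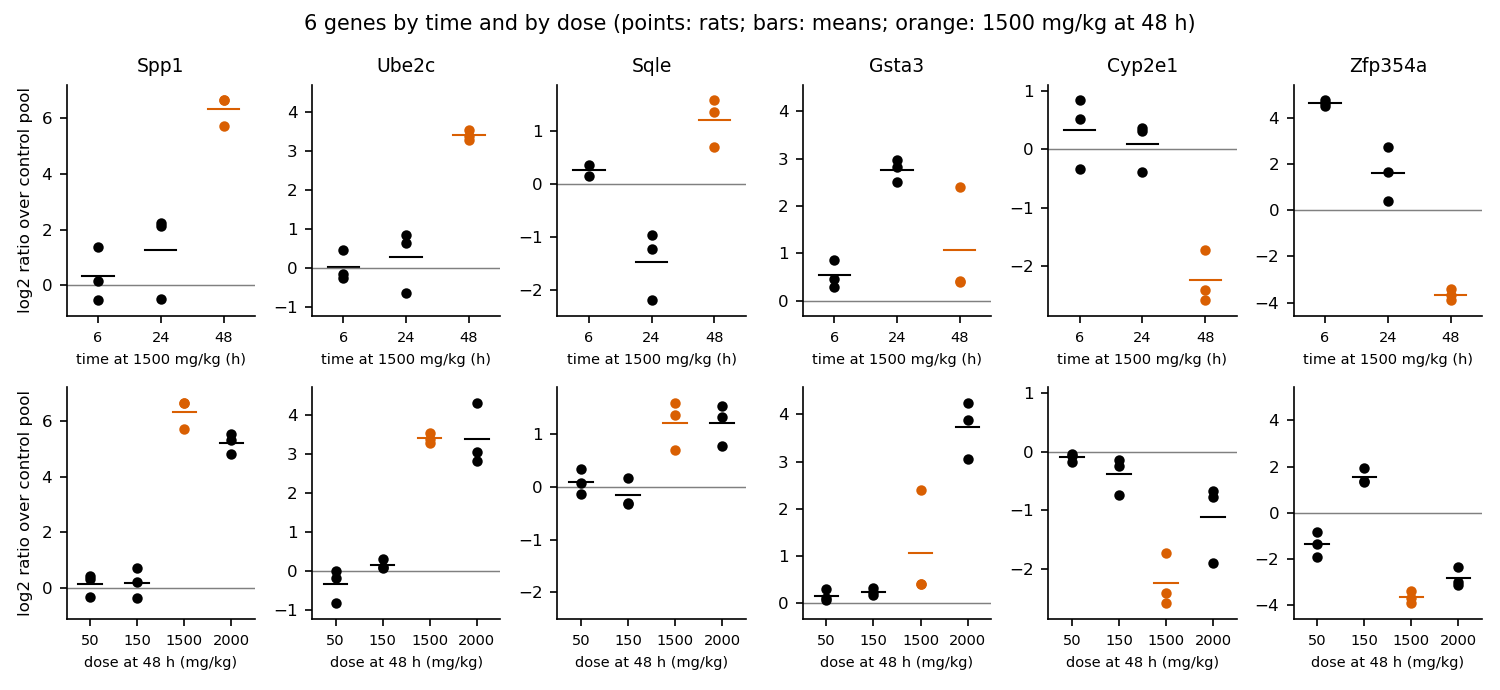
Log2 ratio over the control pool (y axis) of 6 genes by time at 1500 mg/kg in hours (upper row) and by dose at 48 h in mg/kg (lower row), with 1 point for each rat and a bar at the mean; 1500 mg/kg at 48 h is in orange. Spp1 and Ube2c were higher at 48 h than at 6 h or 24 h in every rat, Sqle was below 0 at 24 h and above it at 48 h, Zfp354a averaged 4.62 at 6 h and -3.65 at 48 h, and Gsta3 at 48 h split into 1 rat at 2.40 and 2 rats at 0.40.

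The dose of 2000 mg/kg at 48 h is the nearest condition. Against its own pool 2216 of the 17299 features were called higher and 1586 lower. Of the 2302 called higher at 1500 mg/kg, 1608 were also higher at 2000 mg/kg. These were 69.9% of the calls at 1500 mg/kg and 72.6% of those at 2000 mg/kg. Of the 938 called lower, 611 were also lower there, 65.1% of the calls at 1500 mg/kg but 38.5% of those at 2000 mg/kg. The difference between the doses was called for 935 features (5.4%), of which 575 (3.32%) were higher at 1500 mg/kg and 360 (2.08%) lower. With arrays scaled to equal spread 73 features were higher and 119 lower, and with only these 6 rats fitted 138 were higher and 244 lower. The count was 610 without rat 3007 and 554 without rat 3008. The pools of the doses differ too, so that a difference between pools is part of each value. List counts for differences between groups, here as for 24 h and for the lower doses, were made in the main setting only. Among macrophage genes 12 of 31 members were higher and 1 lower, and among cytoskeleton genes 10 of 31 were higher and 0 lower. The macrophage median was 1.15 at 1500 mg/kg, with 0.43 in rat 3006, and 0.28 at 2000 mg/kg.

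Fabp4, the fatty acid carrier of adipocytes and macrophages, had 1.46, 3.40 and 2.86 at 1500 mg/kg, against 0.23, 0.42 and 0.42 at 2000 mg/kg (4.64-fold, adjusted p = 7.15e-05). Trem2 had 0.68, 1.60 and 1.37, against -0.45, -0.51 and -1.17 (3.81-fold, adjusted p = 8.93e-06). For Trem2 every rat was above 0 at the lower of these doses and below 0 at the higher. Lyz2 had 1.46, 3.48 and 3.25, against 0.97, 0.84 and 1.28, and S100a9 had 1.95, 4.20 and 3.80, against 0.77, 0.59 and 1.57. The differences of Lyz2, S100a9 and Pf4 were not called without rat 3007 (1.32, 1.90 and 1.33), nor that of Lyz2 without rat 3008 (1.44) or with arrays scaled (1.08). The taurine carrier Slc6a6 had -1.04, 0.07 and 0.14, against -2.50, -2.17 and -1.97. Dok3, a myeloid adaptor, differed by 1.80 and Tnnc2, a troponin, by 1.73. When only these 6 rats were fitted, 10 of the 16 genes named for this comparison lost their calls, namely S100a9, Fabp4 (adjusted p = 0.0576), Pf4, Dok3, Tnnc2, Lyz2, Gsta3, Akr7a3, Gsta2 and Hspa1a.

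Detoxification was lower at 1500 than at 2000 mg/kg, with 14 of 37 NRF2 and glutathione genes lower and 0 higher. Gsta3 had 2.40, 0.40 and 0.40 at 1500 mg/kg, against 3.88, 3.05 and 4.24 at 2000 mg/kg (6.29-fold lower, adjusted p = 7.15e-05, and 0.0627 when only these 6 rats were fitted). Akr7a3 had 2.46, 1.20 and 0.91, against 4.13, 2.50 and 3.46. Gsta2 was -0.41 on average, against 1.22. Rat 3006 came closest to the 2000 mg/kg rats in these 3 genes. Mitosis genes were lower in 7 of 33, Cdc20 by -0.96, Plk1 by -0.82 and Cdk1 by -0.74 among them, while DNA replication differed in 1 of 35, Pola2. Hspa1a differed by -2.11 (adjusted p = 0.0223), and this call was lost when any 1 of the 1500 mg/kg rats or either of 2000 mg/kg rats 3117 and 3119 was left out, with arrays scaled, with only these 6 rats fitted and with the treated rat in Cy3 only. Nr1i3 had -1.16, -1.73 and -1.73, against 0.37, -0.22 and -0.46, and Cyp2e1 averaged -2.24 against -1.11.

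A further 4 genes, Erich1, Akirin2, Ldhc and Faxc, were also lower. Erich1 had -1.74, -1.40 and -1.97 at 1500 mg/kg, against 0.88, 1.07 and 0.42 at 2000 mg/kg. Akirin2, a nuclear regulator of inflammatory genes, had -1.94, -1.40 and -2.15, against 0.65, 0.78 and 0.02. Ldhc, the testis form of lactate dehydrogenase, differed by -1.83 and Faxc by -1.63. Rat 3007 was nearest to 0 for Erich1, Akirin2 and Faxc.

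**Figure D5:**
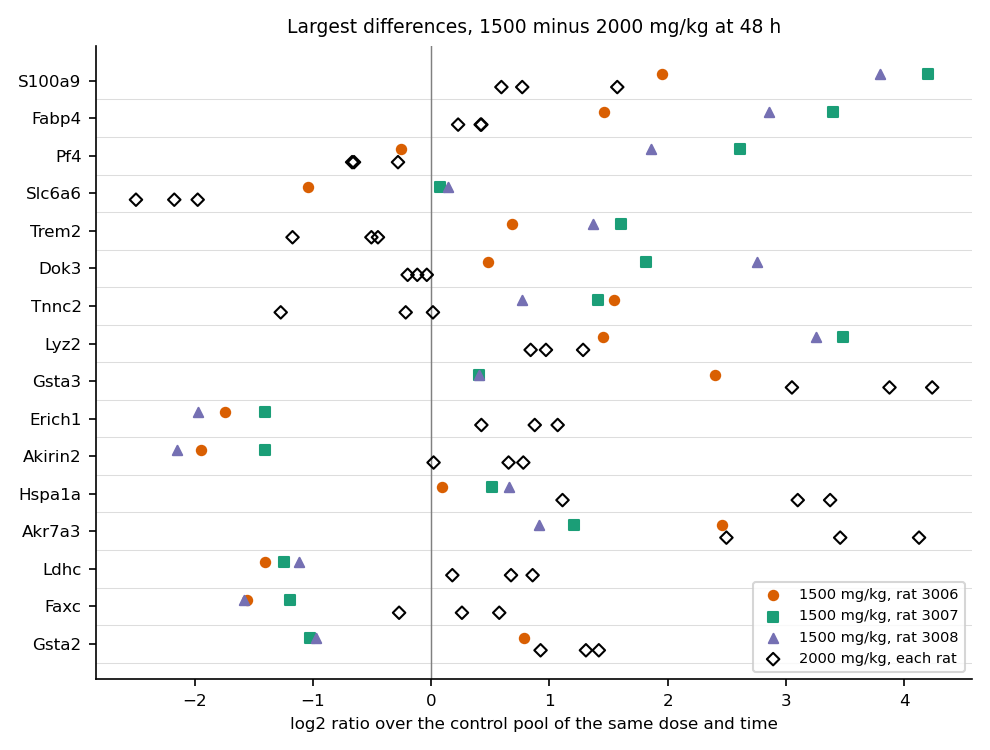
Log2 ratio over the control pool of the same dose and time (x axis) for the 8 genes most above and the 8 most below 2000 mg/kg at 48 h, with filled symbols for the 3 rats at 1500 mg/kg and open diamonds for the 3 rats at 2000 mg/kg. The 16 genes were chosen so that the symbols of the doses do not overlap. Rat 3006 lies nearest to the diamonds for S100a9, Fabp4, Pf4, Gsta3, Akr7a3 and Gsta2.

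The last comparison sets the group against the doses far below it. Set against 50 and 150 mg/kg at 48 h, averaged, 2169 features (12.5%) were called, 1575 (9.1%) higher at 1500 mg/kg and 594 (3.43%) lower. By list, 24 of 35 DNA replication genes, 17 of 33 mitosis genes, 19 of 31 macrophage genes and 40 of 47 ribosomal protein genes were higher, and 20 of 41 P450 genes were lower. Cd14 (-0.62) was the single lower call in the first 4 of these lists. The differences were largest for Spp1 (at least 6.17) and A2m (at least 6.15), both with arrays at the limit and so with no order between them, then for Mt2A (4.53), Gpnmb (4.17), Mcm5 (3.82), S100a10, Ube2c and Mmp12 among genes that were higher. Among those lower they were largest for Stac3 (-4.68), Cyp2c11 (-3.76), Zfp354a (-3.75), Cyp3a2 (-3.42), Pbsn, Serpina3c, Inmt (-3.10) and Oat (-3.07). These 16 calls held under every alternative that was run. Among these 16 genes 3 had a mean farther than 1 from 0 at a low dose. Zfp354a averaged -1.35 at 50 mg/kg and 1.54 at 150 mg/kg, Stac3 0.06 and 1.03, and Mt2A -0.70 and -1.60.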

How the data were processed

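RNA of rat liver was measured on 72 Agilent arrays from 36 rats in 12 groups of 3. The authors deposited 1 log10 ratio per probe and array for 20500 probes; how the ratios were centred or dye-corrected is not given in the sources used here. Deposited log10 ratios end at 2 in either direction, which 23 values reach. No other columns of sample values were set aside (0 columns). The ratios carry no depth, and the number of arrays limits the precision.

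Each ratio was converted to log2, turned to treated over pool by the dyes in the labels, and the 2 arrays of each rat were averaged. Of the probes, 12750 had 1 gene symbol, 5 several and 7745 none by the platform annotation, and probes of a symbol were averaged (2266 of 9653 symbols). Entrez numbers of 12720 probes were found in the RefSeq table of GRCr8. Features with values in at least 2 rats of every group were kept, 17299 of 17403, and 9606 of them had a symbol. Using limma 3.58.1 under R 4.3.3, a model with 1 mean per group was fitted to the 36 rats (lmFit and eBayes, 24 residual degrees of freedom), and p-values were adjusted by Benjamini-Hochberg over all features. The 3 rats are separate animals. Differences between groups were contrasts of the same fit, and all 4 comparisons share the 1500 mg/kg 48 h rats. On simulated data with the same design, 98 of 100 features changed by log2 of 1 and 100 of 100 changed by 2 were called. There were 3 false calls among the unchanged features. The simulated noise was normal and independent between features and held no error from a shared pool. The false calls therefore say nothing about errors of that kind.

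Named genes are the 15 highest and 15 lowest called with 1 sign on all 6 arrays, the 4 farthest from 0 in each list, further list members given with their values, the 8 largest differences in each direction with rats apart, and the 8 with the widest spread among the rats. There were 31 pathway and 10 cell type lists, 907 tested genes in all. The group, the lists and the named genes were chosen with earlier results of these data known. Alternatives were the fold minimum, scaling or centring arrays, fitting only the rats compared, the rat as random block, 1 dye orientation, single probes, exact zeros as missing and each rat left out. Figures were drawn with matplotlib 3.10.9.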

Additional observations from a re-analysis of the deposited data

Results flagged for a closer look

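Differences between conditions were tested as contrasts of the limma fit, and those named below are the ones whose groups differ most with rats apart. Between 1500 and 2000 mg/kg at 48 h, 575 features were higher and 360 lower. The differences on the log2 scale were 2.34 for S100a9, 2.21 for Fabp4, 1.94 for Pf4, 1.94 for Slc6a6, 1.93 for Trem2, 1.80 for Dok3, 1.73 for Tnnc2 and 1.70 for Lyz2. They were -2.65 for Gsta3, -2.50 for Erich1, -2.32 for Akirin2, -2.11 for Hspa1a, -1.84 for Akr7a3, -1.83 for Ldhc, -1.63 for Faxc and -1.62 for Gsta2. Among the 1500 mg/kg rats, S100a9, Fabp4, Pf4, Trem2, Dok3 and Lyz2 were lowest in rat 3006, and Gsta3, Akr7a3 and Gsta2 were highest there.

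Between 48 h and 24 h at 1500 mg/kg, 1117 features were higher and 374 lower. The differences were at least 5.05 for Spp1 and at least 3.77 for A2m, both with arrays at the limit of the deposited values, 3.42 for Gpnmb, 3.39 for Cdkn3, 3.17 for Cd9, 3.12 for Sgk1, 3.12 for Ube2c and 3.12 for Tuba1a. They were -5.24 for Zfp354a, -3.13 for Hspa1a, -2.79 for Akr7a3, -2.33 for Cyp2e1, -2.27 for Ifrd1, -2.27 for Pck1, -2.12 for Cyp3a9 and -2.09 for Tat. Groups of 3 rats were not tested for single outlying samples.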

How the results depend on the processing

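Each pool is 1 control sample, the sign rests on a convention, and 3 rats a group limit what can be called. Against the pool, 9793 features were called with no fold minimum, 1069 with a minimum of 2-fold and 1661 with arrays scaled to equal spread, and 2972 to 3353 with 1 rat left out. Against 2000 mg/kg the counts were 2568, 190 and 192 under these 3 settings, 382 with only the rats compared, 453 with the treated rat in Cy3 only, and 554 to 1119 with 1 rat left out. Against 24 h they were 3260, 612 and 694, then 896 with only the rats compared and 1149 to 1588 with 1 rat left out. Against the lower doses they were 5966, 793 and 1150, and 1811 to 2289. With the treated rat in Cy5 only, 2235 features were higher and 1541 lower than the pool. The direction turned for Or8c18 and Sds with 1 rat left out, whose means ran from -0.007242 (without rat 3006) to 1.48 for Or8c18 and from -1.29 to 0.01369 (without rat 3008) for Sds, and for Cdh5 when its probe nearest 0 was taken alone (-0.17). Of 158 gene results against the pool, 15 lost their call with arrays scaled, 12 with only the 3 rats fitted and 9 without rat 3007, and 1 list each of lymphocytes and cholangiocytes went from 2 calls to 1 without rat 3006. Of the 16 genes named against 2000 mg/kg, 10 lost their call with only those rats fitted. The causes were not tested. No paired analysis was possible because the groups share no rat numbers.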
